A study of Homo sapiens with 8 samples.

Results

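Epithelial-mesenchymal transition (EMT) genes were followed in A549 cells, a line derived from a human lung adenocarcinoma, after raising or lowering AFAP1-AS1, a long non-coding RNA. The 10 genes were chosen by symbol out of the 17056 in the expression table. They are the EMT transcription factors SNAI1, SNAI2, ZEB1, ZEB2 and TWIST1, the cadherins CDH1 and CDH2, the mesenchymal products VIM and FN1, and the epithelial surface protein EPCAM. All 8 libraries came from A549 cells, with 2 libraries in each of 4 groups. The groups were AFAP1-AS1 overexpression (OE in the sample titles) with its vector control, and AFAP1-AS1 knockdown (ASO) with its negative control (ASONC), called the knockdown control here. ASO commonly stands for antisense oligonucleotide. The sources used here do not give the construct, the oligonucleotide sequence, the dose or the time after delivery.

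In EMT, epithelial cells loosen their junctions and take on a motile, matrix-producing state. Factors of the SNAIL, ZEB and TWIST families carry much of the transcriptional part: SNAI1, SNAI2, ZEB1 and ZEB2 are zinc finger proteins that bind E-boxes and repress epithelial genes, CDH1 best known among them, and TWIST1 is a basic helix-loop-helix factor. CDH1 encodes E-cadherin and CDH2 N-cadherin, calcium-dependent adhesion molecules that are tied to actin through catenins. VIM encodes the intermediate filament vimentin, FN1 the matrix glycoprotein fibronectin, and EPCAM an epithelial adhesion molecule. A549 is often used as a model in which TGF-beta drives EMT.

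The deposited values are FPKM, which count fragments per length of transcript, scaled to the size of the library. Whole reads were recovered from them for all 17056 genes, and summed to between 33662218 and 37508995 per library. Each library of the knockdown control stood apart in how many genes it registered, with 1435 and 1341 genes at 0, against 2264 and 2270 in the knockdown libraries and 2205 to 2327 in the overexpression and vector control libraries. Knockdown values of the 10 genes, and of the listed genes named for knockdown, are therefore given against the vector control as well. The vector control belongs to the overexpression arm, and no source used here says that the arms shared delivery, day or batch. Differences of the knockdown and knockdown control libraries from it cannot be told apart from differences between the arms. The targeted RNA, AFAP1-AS1, is not analysed here and gives no check of the labels. The 10 marker genes listed for A549 were all above 1 FPKM on average in each group. KRT8 lay between 1093 and 1317 FPKM and KRT19 between 1.51 and 4.92. As 10648 of the 17056 genes averaged 1 FPKM or more, this is a weak check of the A549 label. Among 3 leukocyte markers, PTPRC was at most 0.00429 FPKM in any library, while CD14 ranged from 1.57 to 2.70 FPKM and CD68 from 48.9 to 90.1 FPKM. Among 6 fibroblast markers, DCN was at most 0.00422 FPKM and COL1A1 ranged from 0.463 to 2.50 FPKM.

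The 10 genes spanned a wide range of levels. VIM was among the most abundant of all genes, at 1004 to 1420 FPKM (percentiles 99.7 to 99.8 of the 17056 genes), and FN1 ranged from 59.96 to 129 FPKM. Next in the vector control came CDH2 with 8.07 and 7.41 FPKM, ZEB1 with 5.46 and 6.01, and CDH1 with 4.08 and 3.55. Their order by FPKM in the vector control was VIM, FN1, CDH2, ZEB1 and CDH1, with no overlap between neighbours in that order. The other 5 genes were low there. SNAI1 had 0.991 and 1.54 FPKM, TWIST1 0.782 and 1.40, EPCAM 0.862 and 0.386, SNAI2 0.761 and 0.461, and ZEB2 0.557 and 0.609. The libraries of these neighbours overlapped, so their order is not resolved.

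**Figure D1:**
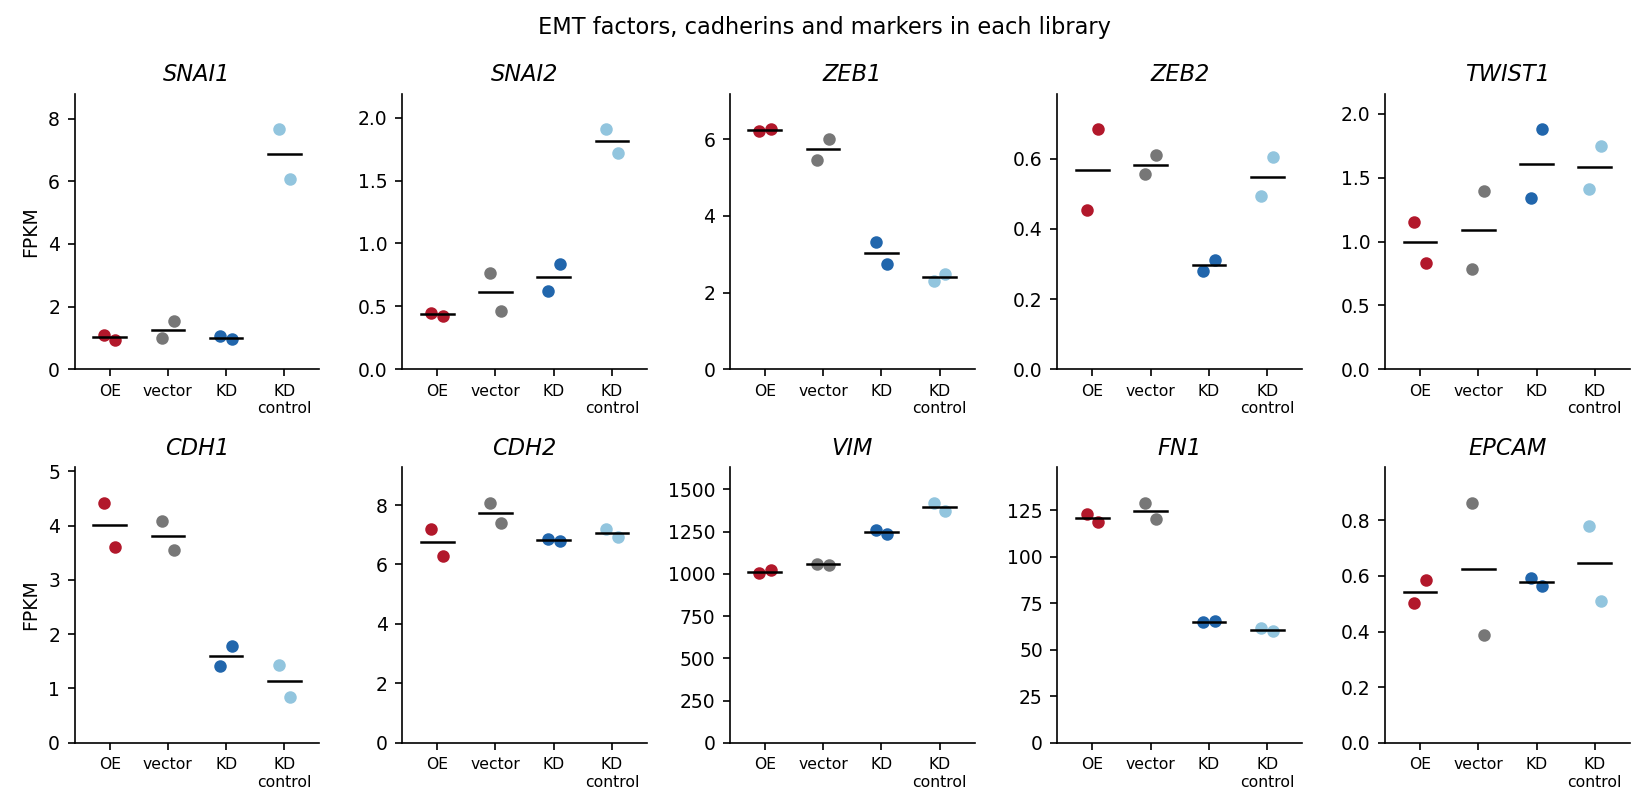
FPKM of the 10 genes in each library (points; y axis linear from 0), with the mean of the 2 libraries as a line, for AFAP1-AS1 overexpression (OE), vector control (vector), AFAP1-AS1 knockdown (KD) and knockdown control. SNAI1 and SNAI2 are highest in the knockdown control, while ZEB1, CDH1 and FN1 are low in both the knockdown and the knockdown control libraries.

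SNAI1 (chr20:49982980-49988886 in RefSeq, GRCh38.p14) had the largest fold change of the 7 tested genes between knockdown and knockdown control. It had 1.06 and 0.955 FPKM in the knockdown libraries (65 and 58 recovered reads), against 7.66 and 6.07 FPKM in the knockdown control (465 and 381 reads). Both knockdown libraries lay far below both controls, and 62.5% of the 10648 genes tested did not overlap between these groups. The difference was -1.96 ± 0.13 on the log2(FPKM + 1) scale (SE; limma adjusted p = 8.76e-07, 2 libraries in each group), and the mean FPKM with knockdown was 0.147 of that in the knockdown control. SNAI1 was also called in each of 14 alternatives, with limma adjusted p-values between 2.23e-11 and 0.0015.

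The high SNAI1 level was found in the knockdown control. The overexpression libraries had 1.10 and 0.936 FPKM and the vector control 0.991 and 1.54, and both knockdown values lie within the range of these 4 libraries. With knockdown, SNAI1 differed from the vector control by -0.17 ± 0.13 (limma adjusted p = 0.278), and the knockdown control differed from the vector control by 1.80 ± 0.13 (limma adjusted p = 1.96e-07). The first of these values depended on a vector control library: it was -0.34 without vector control replicate 1 (limma adjusted p = 0.0492) and 0.01 without vector control replicate 2 (limma adjusted p = 0.951). These comparisons share their control libraries and are not independent of each other.

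SNAI2, which encodes the paralogue SLUG, was also highest in the knockdown control, at a lower level. It had 0.623 and 0.837 FPKM with knockdown (49 and 65 reads) and 1.91 and 1.72 FPKM in the knockdown control (148 and 138 reads). The overexpression libraries had 0.444 and 0.427 FPKM and the vector control 0.761 and 0.461. SNAI2, ZEB2 and EPCAM averaged below 1 FPKM over the 8 libraries and were left out of the main test by its filter, so that 7 of the 10 genes were tested. With no filter, SNAI2 differed by -0.70 ± 0.11 between knockdown and knockdown control (limma adjusted p = 0.0127), and with voom on recovered reads by -1.27 ± 0.30 on the log2 scale (limma voom adjusted p = 0.015). In the no-filter fit 13.3% of all 17056 genes were called in this comparison, and 17.8% with voom. The knockdown control exceeded the vector control by 0.81 ± 0.11 (limma adjusted p = 0.00144 with no filter, where 47.5% of genes were called), and the knockdown libraries differed from it by 0.11 ± 0.11 (adjusted p = 0.512, 38.2% called).

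Of the 7 genes tested between knockdown and knockdown control, SNAI1 and VIM were called, both lower, beside 22.2% of all 10648 genes tested (11.3% higher and 10.9% lower). VIM had 1257 and 1239 FPKM with knockdown, against 1420 and 1370 FPKM in the knockdown control. The groups did not overlap, as was so for 62.5% of all 10648 genes tested. The difference was small, -0.16 ± 0.03 (limma adjusted p = 0.00292). As in all bulk libraries, fewer cells that express a gene and less RNA in each cell cannot be told apart.

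ZEB1, CDH1, FN1, CDH2 and TWIST1 did not pass between knockdown and knockdown control. ZEB1 had 3.32 and 2.75 FPKM with knockdown and 2.31 and 2.49 in the knockdown control, higher in both libraries (0.24 ± 0.09, limma adjusted p = 0.065). It was called in 3 of 14 alternatives: without AFAP1-AS1 knockdown replicate 2 (0.34, limma adjusted p = 0.0446), with TPM scaling (0.27, limma adjusted p = 0.0373) and with voom on recovered reads (0.33, limma voom adjusted p = 0.0179). It was smaller without AFAP1-AS1 knockdown replicate 1 (0.14, limma adjusted p = 0.352) and after the length and GC correction described below (0.11, limma adjusted p = 0.464). CDH1 had 1.41 and 1.78 FPKM with knockdown and 1.44 and 0.841 in the knockdown control (0.29 ± 0.14, limma adjusted p = 0.154), and without knockdown control replicate 1 its value was 0.49 (limma adjusted p = 0.0374). It was 0.084 without knockdown control replicate 2 (limma adjusted p = 0.733) and 0.18 without AFAP1-AS1 knockdown replicate 2 (limma adjusted p = 0.526). FN1 had 65.0 and 65.3 FPKM with knockdown and 61.6 and 59.96 in the knockdown control (0.10 ± 0.04, limma adjusted p = 0.127). It passed with TPM scaling (0.14, limma adjusted p = 0.0446) and with voom on recovered reads (0.10, limma voom adjusted p = 0.0415), and after the length and GC correction it was at 0.0018. CDH2 differed by -0.04 ± 0.08 (limma adjusted p = 0.728). TWIST1 had 1.34 and 1.88 FPKM with knockdown and 1.41 and 1.75 in the knockdown control, with overlapping libraries (0.01 ± 0.15, limma adjusted p = 0.965). ZEB2, outside the main test, had 94 and 103 reads with knockdown and 163 and 206 in the knockdown control, and did not pass with no filter (-0.26 ± 0.08, limma adjusted p = 0.0819) or with voom on recovered reads (-0.83 ± 0.28, limma voom adjusted p = 0.0627).

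**Figure D2:**
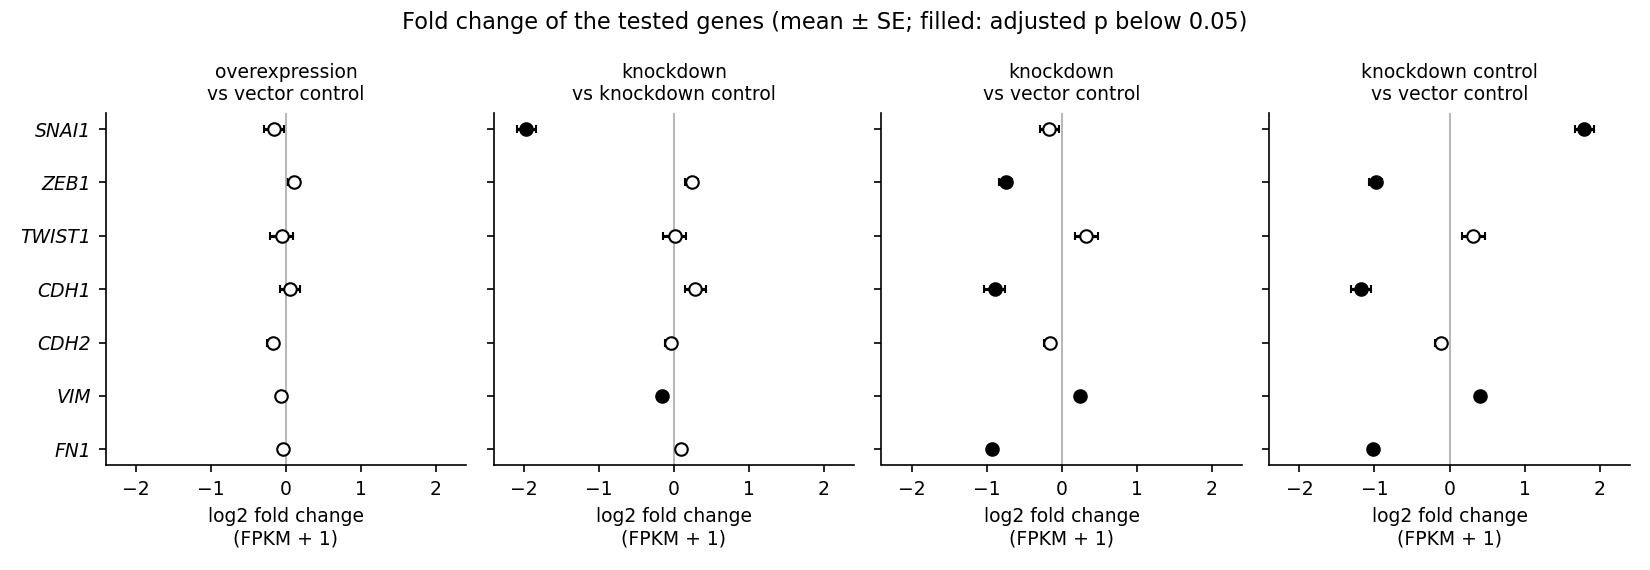
Log2 fold change (FPKM + 1) with its SE for the 7 tested genes in 4 comparisons, each over 2 libraries in a group; filled points have a limma adjusted p below 0.05. With overexpression 0 of 7 points are filled; SNAI1 lies at -1.96 for knockdown against knockdown control and at 1.80 for knockdown control against vector control.

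Set against the vector control of the other arm, the knockdown and knockdown control groups both had lower ZEB1, CDH1 and FN1 and higher VIM. Of the 7 genes tested, 4 were called with knockdown, 1 higher and 3 lower, beside 62.9% of all genes tested (34.1% higher and 28.8% lower). In the knockdown control 5 were called, 2 higher and 3 lower, beside 68.6% (36.8% higher and 31.8% lower), and SNAI1 was the additional gene. The members' shares are near these backgrounds. FN1 (chr2:215360865-215436068) fell to 65.0 and 65.3 FPKM with knockdown and to 61.6 and 59.96 in the knockdown control, against 129 and 119.99 in the vector control. The fold changes were -0.92 ± 0.04 with knockdown (limma adjusted p = 2.63e-08) and -1.02 ± 0.04 in the knockdown control (limma adjusted p = 4.04e-09). ZEB1 (chr10:31318417-31529804) changed by -0.74 ± 0.09 with knockdown (limma adjusted p = 1.62e-05) and by -0.98 ± 0.09 in the knockdown control (limma adjusted p = 1.05e-06).

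E-cadherin RNA, from CDH1 at chr16:68737292-68835537, was lower in both groups as well. CDH1 had 244 and 305 recovered reads with knockdown, 247 and 149 in the knockdown control and 663 and 629 in the vector control. Its fold change against the vector control was -0.89 ± 0.14 with knockdown (limma adjusted p = 0.00013) and -1.18 ± 0.14 in the knockdown control (limma adjusted p = 1.01e-05), and with voom on recovered reads, which adds no pseudocount to FPKM, the second was -1.82. CDH2 stayed within a narrow band: 6.86 and 6.79 FPKM with knockdown, 7.20 and 6.91 in the knockdown control, and 8.07 and 7.41 in the vector control. Its differences from the vector control, -0.16 ± 0.08 with knockdown (limma adjusted p = 0.0829) and -0.12 ± 0.08 in the knockdown control (limma adjusted p = 0.183), did not pass. With TPM scaling they were -0.32 and -0.31 and passed (limma adjusted p = 0.00405 and 0.00388). The knockdown value also passed with median-of-ratios scaling (-0.19, limma adjusted p = 0.0431) and with voom on recovered reads (-0.21, limma voom adjusted p = 0.0322), and after the length and GC correction it was -0.09 (limma adjusted p = 0.316). Without vector control replicate 1 the values were -0.10 with knockdown and -0.063 in the knockdown control (limma adjusted p = 0.354 and 0.57). Within a library, the FPKM of CDH2 was 4.87 and 3.81 times that of CDH1 with knockdown and 4.99 and 8.22 times in the knockdown control, against 1.98 and 2.09 times in the vector control and 1.63 and 1.74 times with overexpression. All 4 knockdown and knockdown control libraries thus had a higher N-cadherin to E-cadherin ratio than the other 4, and CDH2 itself did not pass the test.

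VIM (chr10:17228241-17237593) exceeded the vector control by 0.24 ± 0.03 with knockdown (limma adjusted p = 2.47e-05) and by 0.40 ± 0.03 in the knockdown control (limma adjusted p = 2.52e-07). Its vector control libraries had 1057 and 1054 FPKM. With TPM scaling these values were smaller, 0.06 with knockdown (limma adjusted p = 0.0385) and 0.18 in the knockdown control (limma adjusted p = 2.36e-05). TWIST1 changed by 0.33 ± 0.15 with knockdown (limma adjusted p = 0.0771) and by 0.32 ± 0.15 in the knockdown control (limma adjusted p = 0.0824), neither of which passed. Both values passed without vector control replicate 2 (0.54 with limma adjusted p = 0.013, and 0.53 with limma adjusted p = 0.0125), and the knockdown value also without AFAP1-AS1 knockdown replicate 1 (0.48, limma adjusted p = 0.0424). Without vector control replicate 1 they were 0.12 with knockdown (limma adjusted p = 0.558) and 0.10 in the knockdown control (limma adjusted p = 0.587), and the knockdown value was 0.18 without AFAP1-AS1 knockdown replicate 2 (limma adjusted p = 0.412). ZEB2 had 0.281 and 0.312 FPKM with knockdown, 0.494 and 0.604 in the knockdown control, and 0.557 and 0.609 in the vector control, and with no filter was lower with knockdown than in the vector control (-0.29 ± 0.08, limma adjusted p = 0.0276). EPCAM was scarce in every library, with 22 to 45 reads. Its groups overlapped in all 4 comparisons.

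Markers of other cell types moved between the same groups. The summed FPKM of 6 fibroblast markers was 2.10 to 2.43 with knockdown and 2.81 to 2.83 in the knockdown control, against 0.638 to 0.674 in the vector control, most of it COL1A1, and the highest value of DCN was 0.00422. The 3 leukocyte markers in the table summed to 66.5 to 67.9 FPKM with knockdown and 91.1 to 91.96 in the knockdown control, against 50.4 to 52.1 in the vector control. CD68 made up most of that sum and PTPRC was at or near 0. The 4 endothelial markers summed to 0.172 to 0.228 FPKM with knockdown and 0.128 to 0.338 in the knockdown control, against 1.38 to 1.79 in the vector control. The 5 alveolar type II markers summed to 0.563 to 0.857 FPKM with knockdown and 0.669 to 1.32 in the knockdown control, against 0.237 to 0.318 in the vector control. With overexpression the fibroblast markers summed to 0.836 to 0.882 FPKM and the endothelial markers to 1.01 to 1.26, also apart from the vector control. The leukocyte markers (51.6 to 53.0 FPKM) and alveolar type II markers (0.259 to 0.289) overlapped it. No endothelial or alveolar type II marker averaged 1 FPKM in any group, so their sums are near the floor. The part of these markers in the changes of VIM, FN1 and CDH1 was not tested.

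Transcript length and GC content also moved with these comparisons. Over the 10634 tested genes with a value, the fold change between knockdown control and vector control had a Spearman rho of -0.507 with length and 0.523 with GC content, as a description across genes, which are not independent. Between knockdown and knockdown control the rho was 0.271 with length and -0.448 with GC content. ZEB1 (6267 bases, 38.5% GC) and FN1 (9171 bases, 42.2% GC) are long and rather AT-rich, SNAI1 (1686 bases, 58.2% GC) is short and GC-rich, and CDH1 (4889 bases, 48.6% GC) lies near the middle in GC content. After a per-library correction for both, the fold changes between knockdown control and vector control were -0.52 ± 0.09 for ZEB1, -0.59 ± 0.04 for FN1, -1.12 ± 0.13 for CDH1, 0.34 ± 0.02 for VIM and 1.35 ± 0.13 for SNAI1. All 5 remained past the threshold (limma adjusted p between 1.95e-07 and 0.000514), those of ZEB1 and FN1 at a smaller size. With knockdown, ZEB1 was at -0.41 ± 0.09, FN1 at -0.59 ± 0.04 and CDH1 at -0.85 ± 0.13 against the vector control after correction, and SNAI1 was then called lower (-0.51 ± 0.13, limma adjusted p = 0.00614). The positive values of TWIST1 against the vector control did not outlast the correction (-0.01 with knockdown and -0.12 in the knockdown control). Against the knockdown control, the corrected value of SNAI1 was -1.86 ± 0.13 and that of VIM -0.18 ± 0.02.

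**Figure D3:**
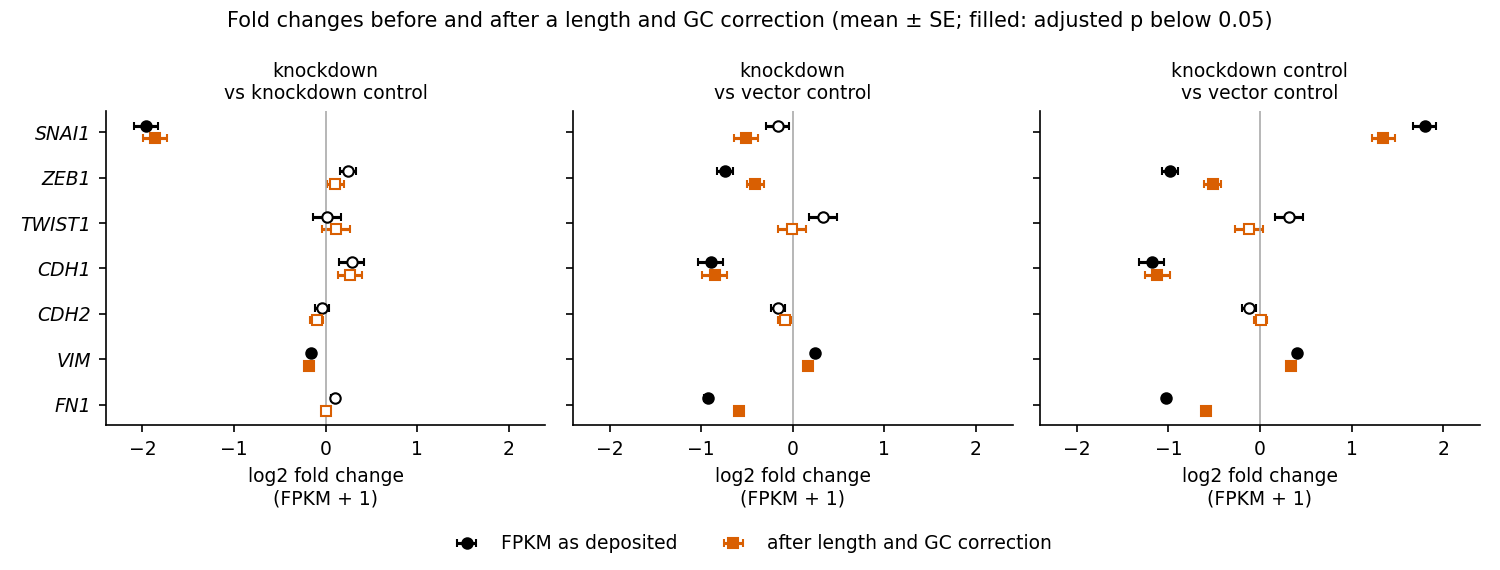
Log2 fold change (FPKM + 1) with its SE for the 7 tested genes, from FPKM as deposited (circles) and after a per-library correction for transcript length and GC content (squares); filled symbols have a limma adjusted p below 0.05. ZEB1 and FN1 move toward 0 in both comparisons with the vector control, while CDH1 shifts little (-1.18 and -1.12 in the knockdown control).

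The start regions of the genes that moved between these groups are shown for the motifs that EMT factors and early response factors are known to bind. RefSeq windows (GRCh38.p14, 250 bases before and 50 from the start site on) were available for 5 of the 10 genes, CDH2, FN1, VIM, ZEB1 and ZEB2, but not for CDH1, EPCAM, SNAI1, SNAI2 or TWIST1. Both strands were searched for 5 motifs, each written on 1 strand. The E-box was searched as CAGGTG, which EMT factors of the zinc finger class are known to bind. The AP-1 motif was searched as TGANTCA, and the cyclic AMP response element (CRE) as TGACGTCA, which is its own reverse complement. The GC box was searched as GGGCGG, and the TATA box as TATAAA. Overlapping matches were each counted. Among 35116 windows of this length, 20.6% held the E-box, 7.71% the AP-1 motif, 1.85% the CRE, 45.0% the GC box and 11.5% the TATA box. ZEB1 has 7 annotated starts, and 2 of its windows held E-boxes, 4 matches in all. The one with 3 of them is given for ZEB1, picked after its letters were read. It lies at chr10:31318966-31319265 on the plus strand, the FN1 window at chr2:215436019-215436318 on the minus strand and the VIM window at chr10:17227991-17228290 on the plus strand. Capitals mark motif matches.
ZEB1: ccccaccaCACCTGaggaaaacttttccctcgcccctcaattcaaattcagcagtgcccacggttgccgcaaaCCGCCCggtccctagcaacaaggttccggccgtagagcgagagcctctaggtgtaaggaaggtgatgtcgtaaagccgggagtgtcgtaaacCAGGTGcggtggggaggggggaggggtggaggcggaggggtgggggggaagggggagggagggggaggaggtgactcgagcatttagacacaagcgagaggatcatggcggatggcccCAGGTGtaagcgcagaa
FN1: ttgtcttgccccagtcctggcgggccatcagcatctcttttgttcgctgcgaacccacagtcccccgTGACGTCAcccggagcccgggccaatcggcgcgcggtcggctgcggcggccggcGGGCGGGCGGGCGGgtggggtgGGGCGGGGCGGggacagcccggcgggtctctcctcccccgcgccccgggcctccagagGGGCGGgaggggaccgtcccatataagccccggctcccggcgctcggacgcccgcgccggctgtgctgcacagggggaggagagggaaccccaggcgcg
VIM: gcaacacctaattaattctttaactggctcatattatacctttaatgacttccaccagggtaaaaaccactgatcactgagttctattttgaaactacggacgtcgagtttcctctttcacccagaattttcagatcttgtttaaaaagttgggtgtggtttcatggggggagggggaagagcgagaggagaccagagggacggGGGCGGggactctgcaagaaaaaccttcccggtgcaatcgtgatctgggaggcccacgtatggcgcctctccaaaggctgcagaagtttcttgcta

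Counted from the start site, the E-boxes of the ZEB1 window begin at -242, -85 and 33. FN1 had 1 CRE match, beginning at -183, and 6 GC boxes, some of them overlapping. VIM had 1 GC box, beginning at -46. The windows of FN1, VIM, ZEB2 and CDH2 held 0 E-boxes. A match is a description of letters, and binding was not measured in these data.

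With overexpression of AFAP1-AS1 none of these genes passed the test. Of the 7 tested, 0 were called in limma against the vector control, beside 0.0657% of all 10648 genes. Voom on recovered reads called 0 as well, and CDH2 was the 1 gene of the 7 with an unadjusted limma p below 0.05, as 738 of all 10648 genes had. CDH2 had 7.21 and 6.29 FPKM with overexpression and 8.07 and 7.41 in the vector control, lower in both libraries (-0.18 ± 0.08, limma adjusted p = 0.671). VIM had 1004 and 1023 FPKM with overexpression and 1057 and 1054 in the vector control, which do not overlap (-0.06 ± 0.03, limma adjusted p = 0.742). Of all 10648 genes tested, 35.1% did not overlap between these groups. ZEB1 had 6.22 and 6.25 FPKM with overexpression and 5.46 and 6.01 in the vector control (0.10 ± 0.09, limma adjusted p = 0.902). FN1 was at -0.04 ± 0.04, CDH1 at 0.06 ± 0.14, TWIST1 at -0.06 ± 0.15 and SNAI1 at -0.16 ± 0.13, with limma adjusted p-values between 0.902 and 0.988. The fold changes of all 7 lay between -0.18 and 0.10.

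The effects of gain and loss were also set against each other. In the overexpression effect minus the knockdown effect, SNAI1 was the single gene of the 7 called (1.81 ± 0.18, limma adjusted p = 7.52e-05), where 10.2% of all genes tested were called. Its overexpression effect was -0.16, and its knockdown effect of -1.96 was taken against the knockdown control, where SNAI1 was high. The value of 1.81 therefore does not show opposite responses to gain and loss. VIM (0.10 ± 0.04, limma adjusted p = 0.15), FN1 (-0.14 ± 0.06, limma adjusted p = 0.172) and CDH1 (-0.23 ± 0.19, limma adjusted p = 0.479) did not pass. FN1 was called lower with voom on recovered reads (limma voom adjusted p = 0.0413).

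Other regulators of the EMT programme were read from a list of 28 genes, of which 15 were tested. With knockdown against knockdown control 3 rose and 4 fell, 46.7% of those tested beside 22.2% of all genes, with a median of -0.02 beside 0.02 for all genes. KLF4, a zinc finger factor of epithelial differentiation, fell by 1.005 ± 0.05 (limma adjusted p = 1.13e-07), and HMGA2, an architectural chromatin protein, by 0.47 ± 0.07. ELF3, an epithelial ETS factor, rose (0.32 ± 0.05), as did TEAD1, the DNA-binding partner of YAP (0.25 ± 0.06). Against the vector control the knockdown libraries had TEAD1 in the opposite direction (-0.71 ± 0.06, limma adjusted p = 9.01e-07), KLF4 at -0.31 ± 0.05 and ELF3 at 0.16 ± 0.05, both called, and HMGA2 at 0.16 ± 0.07 (limma adjusted p = 0.06, not called). In the knockdown control against the vector control 5 rose and 4 fell (2 and 7 with TPM scaling), 60% beside 68.6% of all genes, with KLF4 at 0.70 ± 0.05, HMGA2 at 0.63 ± 0.07, TCF3 at 0.24 ± 0.05 and TEAD1 at -0.96 ± 0.06. With overexpression 0 were called in this list, and the smallest p-values belonged to HMGA2 (-0.18 ± 0.07, limma adjusted p = 0.6) and KLF4 (-0.09 ± 0.05, limma adjusted p = 0.797).

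Cadherin and catenin partners numbered 22, with 15 tested. With knockdown against knockdown control 3 rose and 1 fell, with a median of 0.10. The 26.7% called is near the 22.2% of all genes. The catenin genes CTNND1 (0.24 ± 0.05), JUP (0.19 ± 0.05) and CTNNB1 (0.17 ± 0.05) rose, and CDH4, which encodes R-cadherin, fell by 0.29 ± 0.08. In this comparison 3 were called higher and 0 lower with TPM scaling, and 2 and 0 after the length and GC correction. CDH4 was thus not called lower in either. With voom on recovered reads the counts were 4 and 1. With knockdown against the vector control, CDH4 was at -0.22 ± 0.08 (limma adjusted p = 0.0385), and CTNND1 (-0.05 ± 0.05), JUP (0.06 ± 0.05) and CTNNB1 (-0.05 ± 0.05) did not pass. In the knockdown control against the vector control 2 rose and 9 fell (0 and 10 with TPM scaling), with a median of -0.22. The 73.3% called is near the 68.6% of all genes (36.8% higher and 31.8% lower). The desmosomal genes DSP, which encodes desmoplakin (-1.01 ± 0.05), and DSG2, a desmosomal cadherin (-0.64 ± 0.05), fell there, as did CDH17, the liver-intestine cadherin (-1.09 ± 0.12), and VCL, which encodes vinculin (-0.24 ± 0.04). After the length and GC correction 0 of the 15 were higher and 6 lower, with a median of -0.06. With overexpression 0 were called, and NECTIN2 (0.18 ± 0.08, limma adjusted p = 0.653) and CDH4 (-0.17 ± 0.08, limma adjusted p = 0.741) had the smallest p-values.

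Of 25 epithelial identity genes listed, 13 were tested. With knockdown against knockdown control 5 fell and 0 rose, with a median of -0.14, and 38.5% were called beside 22.2% of all genes (11.3% higher and 10.9% lower). After the length and GC correction 3 fell and the median was -0.06. Among the 5 that fell before correction was the laminin chain gene LAMB3 (-0.49 ± 0.06). LSR, a tricellular junction protein gene (-0.48 ± 0.08), and the keratin gene KRT7 (-0.15 ± 0.03) were others. With knockdown against the vector control, KRT7 was higher (0.26 ± 0.03, limma adjusted p = 2.11e-05), LAMB3 lower (-0.29 ± 0.06, limma adjusted p = 0.00166) and LSR not called (-0.12 ± 0.08, limma adjusted p = 0.223). In the knockdown control against the vector control 10 rose and 2 fell (7 and 2 with TPM scaling, 5 and 2 after the length and GC correction), with a median of 0.41, and 92.3% were called beside 68.6% of all genes. That median was 0.19 with TPM scaling, beside -0.15 for all genes, and 0.07 after the length and GC correction. AP1M2, an epithelial clathrin adaptor gene (0.86 ± 0.06), and KRT18 (0.41 ± 0.03) rose, and LAMA3, another laminin chain gene, fell (-1.05 ± 0.07). With overexpression AP1M2 (0.21 ± 0.06, limma adjusted p = 0.387) and KRT8 (0.08 ± 0.03, limma adjusted p = 0.6) came closest, and 0 were called.

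Mesenchymal and matrix genes numbered 40, with 31 tested. With knockdown against knockdown control 3 rose and 13 fell (51.6% called beside 22.2% of all genes, median -0.17 beside 0.02 for all genes). CCN2 (-0.77 ± 0.07) and CCN1 (-0.37 ± 0.06), matricellular protein genes, and PMEPA1, a TGF-beta target (-0.26 ± 0.04), fell. With knockdown against the vector control, PMEPA1 was higher (0.76 ± 0.04, limma adjusted p = 3.35e-08), CCN1 lower (-0.40 ± 0.06, limma adjusted p = 6.92e-05) and CCN2 not called (0.04 ± 0.07, limma adjusted p = 0.609). Against the vector control the knockdown control had 16 higher and 9 lower (11 and 15 with TPM scaling), 80.6% beside 68.6% of all genes, with a median of 0.14 that was -0.08 under that scaling. NT5E, which encodes the surface enzyme CD73 (1.38 ± 0.05), PMEPA1 (1.02 ± 0.04) and S100A4 (0.67 ± 0.03) rose, and VCAN, which encodes the matrix proteoglycan versican, fell (-0.95 ± 0.05). With overexpression 0 were called in limma, and PMEPA1 (-0.18 ± 0.04, limma adjusted p = 0.153) had the smallest p-value. Voom on recovered reads called 1 of the 31 lower with overexpression and 0 higher. COL1A1 is also one of the fibroblast markers above. It passed the filter only through the knockdown and knockdown control libraries (1.87 to 2.50 FPKM), with 0.463 to 0.591 FPKM in the overexpression and vector control libraries. The lists were chosen with earlier results of these data known, so that their directions are descriptions. Against the vector control, where 62.9% of all genes were called, the knockdown libraries had 3 of the 15 further regulators higher and 5 lower (0 and 6 with TPM scaling), 2 of the 15 cadherin and catenin partners higher and 7 lower (0 and 10 with TPM scaling), 8 of the 13 epithelial genes higher and 3 lower (5 and 4 with TPM scaling), and 12 of the 31 mesenchymal genes higher and 12 lower (8 and 16 with TPM scaling). Among all called genes the share that was higher was 54.2% with knockdown and 53.6% in the knockdown control, each against the vector control, and 31.9% and 31.7% with TPM scaling; between knockdown and knockdown control it was 50.8%, and 66.4% with TPM scaling. TPM scaling shifted the median gene by -0.16 with knockdown and by -0.20 in the knockdown control against the vector control. Relative to that shift, VIM stayed higher and ZEB1, CDH1 and FN1 lower in both comparisons.

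**Figure D4:**
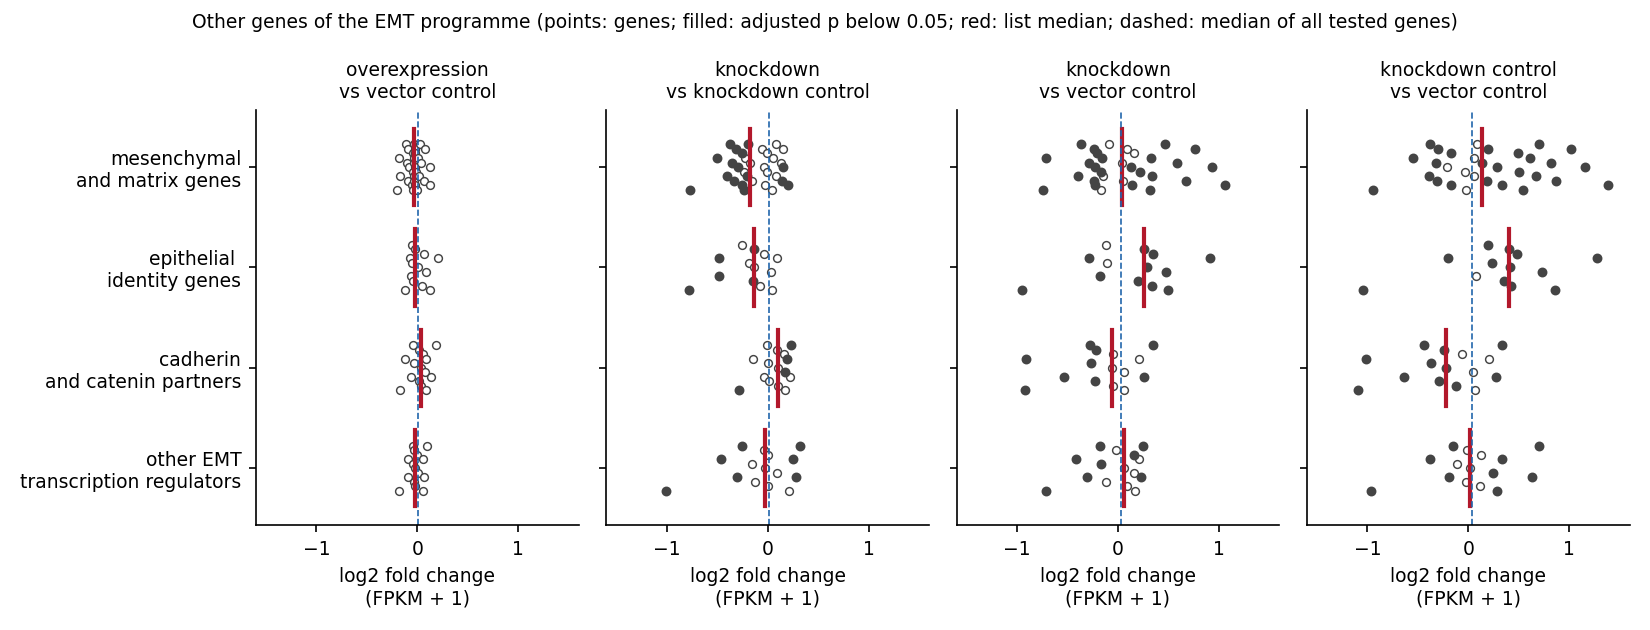
Log2 fold change (FPKM + 1) of each tested gene in 4 further EMT lists (rows) and 4 comparisons (panels); filled points have a limma adjusted p below 0.05, red bars are list medians and the dashed line is the median of all 10648 genes tested. Points cluster near 0 with overexpression and spread to both sides in the other panels. The epithelial median lies at 0.41 for knockdown control against vector control (0.07 after the length and GC correction, not drawn).

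Genes with the most similar profile were found by Pearson correlation of log2(FPKM + 1) over the 8 libraries, which fall into 4 groups of 2 and share their group differences. For CDH1 these were MON2 (r = 0.997), CTCF (0.996) and AFF1 (0.995). For FN1 they were CDV3 (0.999), CPSF2 (0.999) and ATP2B1 (0.999), and for VIM GARS1 (0.998), TPM1 (0.997) and LPCAT4 (0.997). CDH2, with little difference between groups, had NUP62CL (0.96), ASCC2 (0.894) and DCLRE1B (0.88).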

How the data were processed

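The deposited FPKM values were made by the authors and, per the labels, come as 1 table of 8 libraries. Per the submitters' processing notes, HISAT2, featureCounts, HTSeq and R 3.2.0 were used with hg38 or GRCh38; no roles, annotation or strand setting are stated. Whole reads were recovered from the steps between FPKM values (tolerance 0.02 reads, all 17056 genes). Within groups, the 2 libraries differed beyond counting noise (chi-square divided by its degrees of freedom, 5.11 to 5.88). No source says that they are separate cultures; p-values may reflect technical spread alone.

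limma 3.58.1 (R 4.3.3; trended variance, both directions) was fitted to log2(FPKM + 1) of the 10648 genes averaging 1 FPKM or more, with all 4 groups in 1 model and 4 residual degrees of freedom. Genes with a Benjamini-Hochberg adjusted p below 0.05 were called. The scale understates changes of low genes, and an exact permutation test of 2 against 2 cannot go below 0.333. The fits and the read recovery were tested on simulated data. A log2 change of 1 in 197 genes was recovered in 100% of them by each fit, with 5.74% false calls among the calls in limma and 4.83% in voom. These changes were placed in well-read genes, with no length or GC effect simulated. Calls of low genes and the correction of such an effect were therefore not tested. The length and GC correction used GENCODE release 29 and loess (span 0.3) in each library; 99.87% of tested genes had a value. Named genes were the 10 members, up to 4 called genes per list and comparison by smallest p (2 where 0 were called), and the 3 most correlated genes of CDH1, CDH2, VIM and FN1. Some genes that this rule names are not reported here. Alternatives were other pseudocounts, filters and scalings, voom, the correction, a replicate block and leaving out each library. Voom without the filter, and the list counts under other scalings, were added after seeing the data. Members and lists were chosen with earlier results of these data known.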

Additional observations from a re-analysis of the deposited data

How the results depend on the processing

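The count of called genes among the 7 tested was 0 with overexpression under every alternative run. For knockdown against knockdown control it was 2, and 1 with a minimum mean of 5 FPKM (which leaves 3 of the genes), 4 with TPM scaling and 4 with voom on recovered reads, where ZEB1 and FN1 were added; without a library each it ranged from 2 to 3. Against the vector control the counts of 4 with knockdown and 5 in the knockdown control were 2 and 2 with a minimum of 5 FPKM. The first was 5 with median-of-ratios scaling, TPM scaling, voom and the length and GC correction, and 4 to 5 without a library each; the second was 6 with TPM scaling and 5 to 6 without a library each. The count of 1 for the overexpression effect minus the knockdown effect was 0 with that minimum and 2 with voom, where FN1 was added. The cause was not tested beyond the fewer genes left. With a replicate block the counts were 0, 2, 4, 5 and 1, as without it, and samples with the same number did not deviate together (correlations between -0.0614 and 0.0622).

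Values that changed sign had not passed the test. Left-out libraries did this with overexpression for SNAI1 (-0.33 to 0.020), TWIST1 (-0.27 to 0.16), CDH1 (-0.059 to 0.17) and FN1 (-0.093 to 0.0091), with knockdown against knockdown control for TWIST1 (-0.14 to 0.16), with knockdown against vector control for SNAI1 (-0.34 to 0.011), and in the overexpression effect minus the knockdown effect for TWIST1 (-0.28 to 0.14). The length and GC correction, with and without the replicate block, did so against the vector control for TWIST1 (-0.0089 with knockdown, -0.12 in the knockdown control) and CDH2 in the knockdown control (0.0076), and for ZEB1 in the overexpression effect minus the knockdown effect (0.0076); the cause was not tested. Over all genes, the 7 called with overexpression were 0 with no filter, 11 with a minimum of 5 FPKM, 11 with TPM scaling, 27 with voom and 12 without vector control replicate 2. The 2369 called between knockdown and knockdown control were 1176 to 1610 without a library each. The 1087 called in the overexpression effect minus the knockdown effect were 1730 with voom, 692 with the correction (656 with the replicate block too) and 609 to 823 without a library each. The edgeR and DESeq2 fits planned on recovered reads were not run, because the deposited unit is FPKM. SNAI2, ZEB2, TWIST1 and EPCAM had at most 238 reads in any library, which limits their precision.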
